A study of Rattus norvegicus with 30 samples.

Results

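The change of the testicular response to mono-(2-ethylhexyl) phthalate (MEHP) between 6 h and 12 h was examined over 12 of 30 arrays, 3 animals in each of 4 groups. Male Fischer rats of postnatal day 28 were gavaged once with MEHP at 1 g/kg, carried in corn oil, or with the oil only, and were killed 6 h or 12 h later. RNA of the whole testis was hybridised to 1-colour Affymetrix Rat230_2 arrays, 1 array per animal, with RNA integrity numbers of 8.4 to 10 where given. Below, a change is the mean log2(signal + 16) after MEHP minus that after corn oil at the same time, ± its standard error, with n = 3 animals per group. The time dependence is the change at 12 h minus the change at 6 h. Each was tested in limma over 31042 probe sets, with Benjamini-Hochberg adjusted p-values and a threshold of 0.05.

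Probe sets were sorted by the 3 tests. A late probe set passed for time dependence and at 12 h but not at 6 h, with both in 1 direction. A persisting one passed at both times in 1 direction and not for time dependence, which does not show that the changes were equal. A faded one passed at 6 h and for time dependence with opposite signs. A reversed one passed for time dependence and at 1 time or both, with changes of opposite sign of at least 1.5-fold at both times.

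The body forms MEHP from a phthalate used to soften plastics. Its best known target in the young testis is the Sertoli cell, which supports germ cells and builds the blood-testis barrier, and the steroid-producing Leydig cells also respond to phthalates. Immediate early genes are transcribed within minutes of a signal without new protein synthesis, whereas chemokines, adhesion molecules and protease inhibitors often follow through transcription factors such as NF-kB, AP-1 and C/EBP. NF-kB dimers are held in the cytoplasm by inhibitors such as the product of Nfkbia and bind short GC-flanked motifs in promoters once released.

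Time dependence was called for 259 probe sets, 0.834% of those tested. Of these, 184 (0.593% of all) had a change that lay higher at 12 h than at 6 h and 75 (0.242%) one that lay lower. At 6 h 33 probe sets differed between MEHP and corn oil (0.106%), 31 of them higher after MEHP (0.0999%). At 12 h the count was 1818 (5.86%), with 1131 higher (3.64%) and 687 lower (2.21%). Of the probe sets 237 were late (171 higher and 66 lower), 28 persisting, 3 faded and 13 reversed. Those that passed at both times and for time dependence, all in 1 direction, numbered 0. A further 1540 passed at 12 h alone without a time dependence call, so that for them a later onset was not shown. At an unadjusted p under 0.05 limma gave 3023 probe sets for time dependence.

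**Figure D1:**
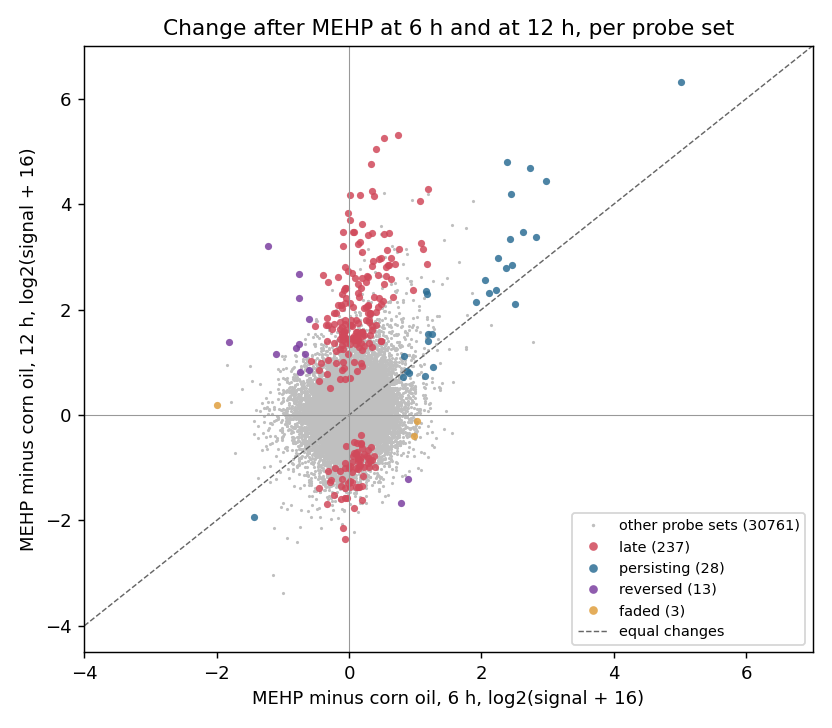
Each point is 1 of 31042 probe sets, placed by its change (MEHP minus corn oil, log2 of signal + 16) at 6 h on the x axis and at 12 h on the y axis, and coloured by class, with a dashed line where both are equal. The 237 late probe sets have medians of 0.11 at 6 h and of 1.92 (171 higher) or -0.99 (66 lower) at 12 h, the 28 persisting ones have medians of 2.08 and 2.33 with some far above the dashed line, and the 13 reversed ones lie in the upper left and lower right.

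The 3 animals of the MEHP 12 h group differed more among themselves than those of any other group, with a pooled SD of 0.406 in log2 over the 13898 probe sets of mean signal at or above 200, against 0.13 to 0.346 in the other 9 groups. Fitted on the 12 arrays alone, with no spread borrowed from the other times, time dependence was called for 12 probe sets in place of 259, of which all 12 were among the 259, and 10 were late, 11 persisting and 2 reversed. The group means are the same in that fit, so no direction could change, and all 259 had an unadjusted p under 0.05. Leaving out 1 animal at a time gave between 113 calls (without MEHP 6 h animal 31) and 815 (without MEHP 12 h animal 58). All 259 kept their direction each time, but these fits share most of the arrays that chose the 259. Animal 57 stood furthest from corn oil, and without it 165 were called, 147 of them among the 259. Signals of 18 bacterial spike probe sets differed between the times but little between treatments, with mean log2 of 11.09 ± 0.249 and 10.98 ± 0.179 (SD, n = 3) after corn oil and MEHP at 6 h and 11.69 ± 0.16 and 11.75 ± 0.135 at 12 h. Dosing began at 10 in the morning for the 6 h animals and at 6 in the morning for the 12 h animals, so the times also differ in clock hour, as they do in gavage volume (0.265 to 0.305 ml against 0.21 to 0.265 ml). Corn oil animals of the same clock times stand in each change.

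Promoters were compared because genes of both the late and the persisting class include targets and regulators of NF-kB. The windows of 300 bases, 250 before the gene start and 50 from it, come from RefSeq (build GRCr8), and are printed 5′ to 3′ along the gene's strand with NF-kB motifs on either strand in capitals and overlapping matches joined. The motif searched was GGG, any 2 bases, and then TTTCC or TTCCC. Cxcl1 (chr14:17479272-17479571, minus strand) and Nfkbia (chr6:78597023-78597322, minus strand) were persisting, and Ccl20 (chr9:91836909-91837208, plus strand) and Vcam1 (chr2:206742734-206743033, minus strand) were late.
Cxcl1: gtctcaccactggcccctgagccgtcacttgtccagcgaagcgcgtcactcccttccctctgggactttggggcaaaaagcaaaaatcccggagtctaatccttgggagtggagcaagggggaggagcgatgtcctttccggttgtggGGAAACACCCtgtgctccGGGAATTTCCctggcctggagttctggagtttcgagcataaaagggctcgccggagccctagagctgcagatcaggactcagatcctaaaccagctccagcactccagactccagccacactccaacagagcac
Nfkbia: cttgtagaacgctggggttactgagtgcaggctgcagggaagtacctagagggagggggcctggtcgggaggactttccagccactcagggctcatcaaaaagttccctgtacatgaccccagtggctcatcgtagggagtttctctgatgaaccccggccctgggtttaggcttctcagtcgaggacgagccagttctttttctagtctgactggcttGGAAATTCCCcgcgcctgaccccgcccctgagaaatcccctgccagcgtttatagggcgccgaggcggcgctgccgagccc
Ccl20: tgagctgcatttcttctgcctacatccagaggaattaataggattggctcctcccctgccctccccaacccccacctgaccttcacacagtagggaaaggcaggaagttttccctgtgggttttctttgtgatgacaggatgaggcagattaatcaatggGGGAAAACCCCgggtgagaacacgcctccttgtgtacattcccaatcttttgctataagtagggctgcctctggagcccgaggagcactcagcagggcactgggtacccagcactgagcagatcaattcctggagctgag
Vcam1: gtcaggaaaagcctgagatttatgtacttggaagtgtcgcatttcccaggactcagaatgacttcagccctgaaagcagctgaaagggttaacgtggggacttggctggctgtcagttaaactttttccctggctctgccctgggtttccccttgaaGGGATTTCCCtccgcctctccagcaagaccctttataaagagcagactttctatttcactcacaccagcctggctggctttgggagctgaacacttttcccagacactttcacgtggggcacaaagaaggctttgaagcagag
Cxcl1 held 2 matches that do not overlap, which begin 102 and 84 bases before the gene start. The match of Nfkbia begins 31 bases before it, that of Vcam1 93, and the overlapping pair of Ccl20 90 and 89.

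Of the 20 persisting genes that were higher, 16 had a promoter in the table, and 4 of them (25%) held a match, namely Cxcl1, Nfkbia, Dusp5 and Nfkbiz. Of 136 late genes that were higher 104 had one, and 7 (6.73%) held a match, which include Ccl20, Vcam1 and Nfkb1. Of 41 late lower promoters 1 (2.44%) did, and of all 27457 promoters 969 (3.53%). The AP-1 motif TGANTCA stood in 19 of the 104 late higher promoters (18.3%), 3 of 41 late lower ones (7.32%), 1 of 16 persisting ones (6.25%) and 2012 of all (7.33%). The cyclic AMP element TGACGTCA was found in 2 of 104, 0 of 41, 2 of 16 and 525 of all (1.91%). For the C/EBP motif TTGCNNAA the counts were 14 (13.5%), 4 (9.76%), 1 (6.25%) and 2877 (10.5%), and for the steroidogenic factor motif AAGGTCA 6 (5.77%), 0, 0 and 1201 (4.37%). Of 6 reversed genes with a promoter, 2 (Fmo2 and Taok3) held the steroidogenic factor motif, 1 (Fmo2) the C/EBP motif and 0 any other motif searched. Fmo2 and Taok3 were higher at 6 h and lower at 12 h, each in 1 dim probe set (highest group means 146 and 101.4). Their probe sets of highest mean signal passed no test. Star had no promoter in the table. These shares describe letters in a short window and were not tested.

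The chemokines Ccl2 and Ccl20 had the largest time dependences among late probe sets with a gene symbol. Ccl2, a chemokine that attracts monocytes, had signals of 21.7, 41.4 and 29.2 after corn oil and 39.6, 78.2 and 39.8 after MEHP at 6 h. At 12 h it had 20.6, 33.6 and 27.7 after corn oil and 2781, 736 and 2085 in MEHP animals 57, 58 and 59, the order kept below. The groups overlapped at 6 h, and at 12 h the 3 MEHP animals stood far above all others. The time dependence was 4.73 ± 0.79 (adjusted p = 0.0044), a difference of 26.5-fold, and the change at 6 h, 0.53, had a 95% interval of -0.63 to 1.68. Ccl20, which attracts dendritic cells and lymphocytes, went from 30, 83.4 and 48.9 after MEHP at 6 h to 1629, 581 and 1306 at 12 h, against 5.33 to 47 after corn oil over both times (time dependence 4.64 ± 0.80, adjusted p = 0.0044). Ccl7, another monocyte chemokine, had 6.11, 27.4 and 16.4 after MEHP at 6 h and 681, 281 and 555 at 12 h, with corn oil signals of 11.1 to 33.1 (3.68 ± 0.68, adjusted p = 0.00736). For these 3 genes, and for S100a8, S100a9, Il1r2, Calcb, Sectm1b, Fst, Plaur and Fas below, all corn oil signals were under the arrays' 40th percentiles, which ran from 66.6 to 86.5, so that the sizes in log2 depend on the added 16. Of 34 chemokine, cytokine and adhesion genes measured, 7 passed for time dependence, all higher, against 0.593% of all probe sets, and the median time dependence of the list was 0.35, against -0.01 over all probe sets.

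Adhesion molecules that hold leukocytes on vessel walls were late as well. Icam1 had 57.9, 186 and 126 after MEHP at 6 h, on both sides of its corn oil signals of 80.4 to 115, and 1300, 468 and 905 at 12 h, against 45.4 to 104 after corn oil (time dependence 3.13 ± 0.57, adjusted p = 0.00597). Vcam1 had 291, 642 and 516 after MEHP at 6 h, and 4938, 1196 and 2697 at 12 h, against 256 to 393 over the 6 corn oil animals (2.35 ± 0.48, adjusted p = 0.0155). Vcam1 stands also in the Leydig marker list, and its call was lost without MEHP 6 h animal 31 (adjusted p = 0.0686).

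Several transcription factors of the inflammatory response were also late. Nfkb1, which encodes the p50 subunit of NF-kB, had 257, 475 and 247 after MEHP at 6 h and 1294, 791 and 936 at 12 h, against 176 to 262 after corn oil (time dependence 1.62 ± 0.36, adjusted p = 0.0279, lost in 7 of 12 fits without 1 animal, where the adjusted p reached 0.102). Cebpb had 808, 193 and 282 at 12 h against 37.5 to 140 in all other animals of both times (2.45 ± 0.50, adjusted p = 0.0139, and 0.0615 without MEHP 6 h animal 31). Cebpd had a 6 h change of 1.18 ± 0.27 (adjusted p = 0.0937) and a 12 h change of 2.87 ± 0.27, and its 3 MEHP animals lay above the corn oil animals at both times (time dependence 1.69 ± 0.37, adjusted p = 0.0272, lost in 8 of 12 fits without 1 animal), and of its other 2 probe sets 1 was late (2.98, adjusted p = 0.00922) and the dimmest passed no test (-0.74, adjusted p = 0.829). Klf5 had 73.3, 103 and 53.9 after MEHP at 6 h and 2016, 372 and 1187 at 12 h, against 49.2 to 75.9 after corn oil (3.45 ± 0.51, adjusted p = 0.00113). Of its other 3 probe sets 1 was late, 1 passed at 12 h alone and the dimmest passed no test. Of 15 measured NF-kB subunits and feedback inhibitors 10 rose at 12 h (3.64% of all probe sets) and 2 at 6 h (0.0999%), and Nfkb1 alone passed for time dependence, with a list median of 0.73.

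Myc, a transcription factor of growth and proliferation, was the 1 of 39 measured immediate early genes with a time dependence call. It had 40.1, 74.5 and 89.4 after MEHP at 6 h and 444, 211 and 370 at 12 h, with 23.7 to 86.7 after corn oil (2.45 ± 0.48, adjusted p = 0.0113, and 0.0508 without MEHP 6 h animal 31).

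Proteases and their inhibitors formed the list with the highest count of members called for time dependence, 9 of 36 measured, all higher, against 0.593% of all probe sets. As a share the neutrophil markers had more, 3 of 8. Timp1, the tissue inhibitor of metalloproteinases, was the most abundant of those described here. It had 628, 991 and 951 after MEHP and 752, 944 and 749 after corn oil at 6 h. At 12 h it had 13624, 3550 and 3514 after MEHP and 780, 738 and 1041 after corn oil. Animal 57 had the highest signal, and the other two also lay above all corn oil animals (time dependence 2.64 ± 0.46, adjusted p = 0.0044). Plaur, the urokinase receptor, went from 4.28, 8.27 and 5.1 to 425, 132 and 255 after MEHP, with 2.38 to 11.2 after corn oil (3.57 ± 0.48, adjusted p = 0.000493). Adamts4, a protease that cuts proteoglycans, had even signals of 324, 250 and 382 at 12 h, against 46.5 to 70.8 in the other 9 animals (2.19 ± 0.39, adjusted p = 0.00499). The list median of the time dependence was 0.63.

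Receptors and ligands that modulate these signals were late too. Fst, or follistatin, which binds and blocks activin, had 29.6, 89.1 and 37.2 after MEHP at 6 h and 1270, 452 and 860 at 12 h, against 20.6 to 42.8 after corn oil (3.90 ± 0.49, adjusted p = 0.000277), and its second probe set was late as well. Inhba, the activin A subunit, rose at 12 h (1.62 ± 0.37, adjusted p = 0.00663), but its time dependence did not pass (adjusted p = 0.186). Il1r2, the decoy receptor of interleukin 1, had 7, 18.8 and 20 after MEHP at 6 h and 1327, 190 and 303 at 12 h (3.85 ± 0.77, adjusted p = 0.0128, and 0.0501 without MEHP 6 h animal 31). Tnfrsf1a, the main receptor of tumor necrosis factor, had 227, 320 and 275 at 6 h and 2645, 849 and 1156 at 12 h after MEHP, with 290 to 330 after corn oil (2.25 ± 0.33, adjusted p = 0.00104). Fas, a death receptor long studied in the phthalate-exposed testis, had 26.8, 39.3 and 46.1 at 6 h and 421, 141 and 298 at 12 h, with 24.1 to 51 after corn oil (2.22 ± 0.45, adjusted p = 0.0138). The Fas call was lost in 3 of 12 fits without 1 animal (adjusted p up to 0.0571), and its other 2 probe sets, with highest group means of 25.6 and 22.8, passed no test.

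Several secreted or membrane proteins had near-empty signals before 12 h. Calcb, a neuropeptide of the calcitonin gene-related family, had 6.38, 26.5 and 7.6 after MEHP at 6 h and 1062, 202 and 398 at 12 h, with 1.73 to 37 after corn oil (3.77 ± 0.71, adjusted p = 0.00877). Sectm1b had 5.44, 11.1 and 6.58 and then 1332, 113 and 351, with 4.11 to 6.89 after corn oil (4.01 ± 0.69, adjusted p = 0.0044). In both genes animal 57 was far above the other two, which still lay above every corn oil animal.

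Cdkn1a, the p21 inhibitor of the cell cycle, had 508, 691 and 513 after MEHP at 6 h, just above its corn oil signals of 425 to 470, and 1790, 906 and 1114 at 12 h against 359 to 440 (time dependence 1.28 ± 0.24, adjusted p = 0.00778). Bag3, a partner of heat shock protein 70, had 807, 375 and 438 at 12 h and 141 to 210 in the other 9 animals (1.59 ± 0.31, adjusted p = 0.011). Gbp4, an interferon-induced GTPase, had 111, 278 and 174 after MEHP at 6 h, all above its 63, 75.1 and 67.6 after corn oil, and 2075, 596 and 852 at 12 h (3.11 ± 0.46, adjusted p = 0.00113). Its change at 6 h, 1.19 ± 0.33, did not pass (adjusted p = 0.323). Among the interferon-responsive genes 2 of 20 passed for time dependence, Gbp4 and Gbp2. The latter, a related GTPase, had 276, 536 and 305 at 6 h and 3870, 978 and 1255 at 12 h after MEHP, with 205 to 362 after corn oil (1.96 ± 0.46, adjusted p = 0.0402, lost in 9 of 12 fits without 1 animal).

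Tagln and Acta2, contractile genes of the peritubular myoid cells that surround the tubules, were late with less spread between animals. Tagln had 445, 506 and 628 after MEHP at 6 h, and 1417, 1317 and 913 at 12 h, against 367 to 483 after corn oil (1.30 ± 0.24, adjusted p = 0.00736). Acta2, smooth muscle actin, had 2699, 2400 and 1673 at 12 h against 828 to 1008 in the other 9 animals (1.15 ± 0.24, adjusted p = 0.0144, and 0.0531 without MEHP 12 h animal 57). Of the 12 measured myoid markers these 2 passed, against 0.593% of all probe sets passing higher. Only 7 of the 12 had a time dependence above 0, and the list median was 0.20. The summed signal ran from 10493 to 14259 after MEHP at 12 h and from 8334 to 10416 in the other 3 groups. In whole testis more cells of a type and more RNA per cell cannot be told apart.

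Some leukocyte genes were late, S100a8 and S100a9 by amounts that differed widely between animals. S100a9, a calcium-binding protein of neutrophils and monocytes, had 5972, 258 and 519 at 12 h, and 2.54 to 28.1 in the other 9 animals (4.44 ± 1.05, adjusted p = 0.0404, lost in 10 of 12 fits without 1 animal, where the adjusted p reached 0.119). S100a8, its partner, had 1386, 117 and 204 against 1.18 to 38.9 (4.15 ± 0.85, adjusted p = 0.0144). The macrophage gene Lyz2, which encodes lysozyme, had 7260, 1027 and 965 at 12 h and 368 to 541 in the other 9 animals, but its time dependence did not pass (adjusted p = 0.0631). The macrophage mannose receptor Mrc1 passed with 1926, 1513 and 1533 against 771 to 1190 (0.72 ± 0.17, adjusted p = 0.0434, lost in 8 of 12 fits without 1 animal).

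Of 8 measured neutrophil markers 3 passed for time dependence (S100a8 and S100a9 among them), against 0.593% of all probe sets passing higher. Over all 8 the sum was 596 to 8063 after MEHP at 12 h and 83 to 212 in the other 3 groups. In animal 57 most of it came from S100a9 and S100a8. Camp, a defining neutrophil gene, stayed between 2.24 and 9.27 in all 12 animals, and 4 of the 8 markers lay below the 40th percentile after MEHP at 12 h. Over 21 macrophage and monocyte markers the sum ran from 5189 to 15585 after MEHP at 12 h and from 3317 to 4194 elsewhere. Of the 21 only 1 (Mrc1) passed for time dependence, and Lyz2 made up a large part of the sum in animal 57. Lymphocyte markers had a sum of 1625 to 1830 after MEHP at 12 h and 1421 to 1979 elsewhere. Of these 13 markers 0 were called, near the 0.834% over all probe sets. The neutrophil and macrophage sums were highest after MEHP at 12 h, as were the late higher chemokine, adhesion, receptor and protease genes above. The part of these markers in those results was not tested.

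The 3 MEHP 12 h animals stood in 1 order in most late probe sets. Of the 171 late higher probe sets, animal 57 lay furthest from the corn oil mean in 157, animal 59 in 14 and animal 58 in 0, and animal 58 lay nearest in 155. The median difference from corn oil was 2.48 in animal 57, 1.74 in 59 and 1.32 in 58. Of the 66 late lower probe sets animal 57 lay furthest in 51 and animal 58 nearest in 51. Among the 27 persisting higher probe sets the furthest was animal 59 in 14, animal 57 in 11 and animal 58 in 2. Over all 31042 probe sets animal 57 was the highest in 12605.

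**Figure D2:**
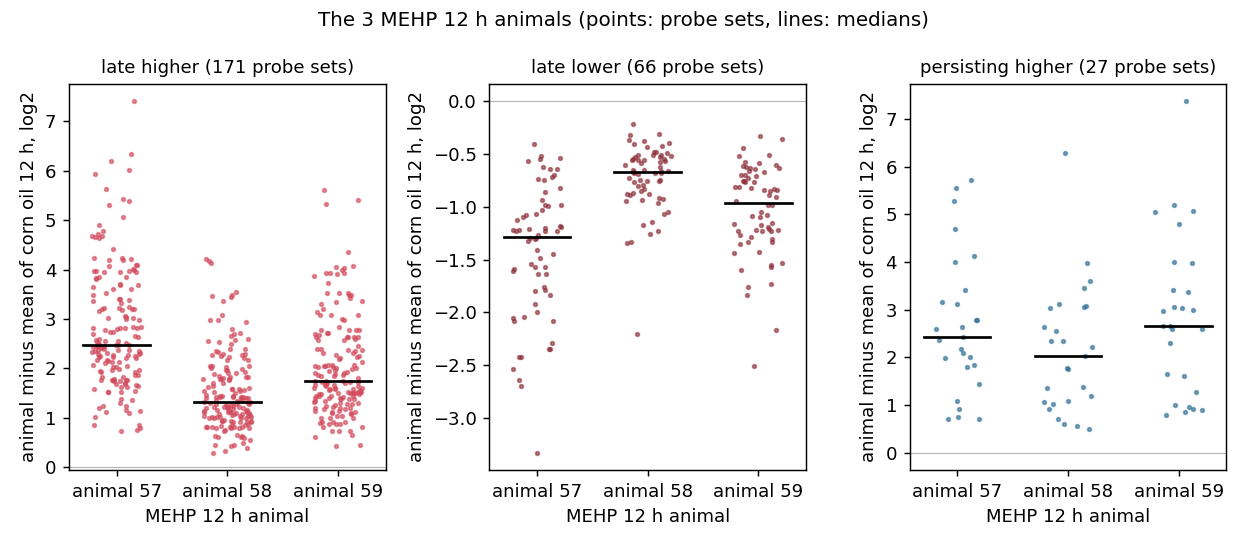
Each point is the log2(signal + 16) of 1 MEHP 12 h animal minus the mean of the 3 corn oil 12 h animals for 1 probe set, in 3 panels for 171 late higher, 66 late lower and 27 persisting higher probe sets, with the median as a line. The late panels are graded, with medians of 2.48, 1.32 and 1.74 (higher) and -1.28, -0.67 and -0.97 (lower) in animals 57, 58 and 59, while the persisting panel has 2.43, 2.02 and 2.65.

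Late decreases were smaller and fewer, with a median time dependence of -1.09 over 66 probe sets, against 1.76 over the 171 late higher ones. Among all time dependence calls, late or not, the fold had a median of 2.17 in the 75 lower probe sets and 3.46 in the 184 higher ones. Cmtm8, a membrane protein of the chemokine-like factor family, had 296, 210 and 246 after MEHP at 6 h, which overlapped its corn oil signals of 242 to 336, and 17.2, 126 and 42.4 at 12 h (time dependence -2.29 ± 0.39, adjusted p = 0.0044). Cavin2, a coat protein of caveolae, had 304, 290 and 179 at 6 h and 66.7, 97.2 and 47.5 at 12 h, with 215 to 287 after corn oil (-1.84 ± 0.33, adjusted p = 0.00604). Lratd1 had 1314, 1132 and 1276 at 6 h and 406, 638 and 428 at 12 h, with 1164 to 1642 after corn oil (-1.53 ± 0.19, adjusted p = 0.000277). It passed also when the 12 arrays were fitted alone (adjusted p = 0.0337). Arxes1 had 1683, 1776 and 1556 at 6 h, just above its corn oil signals of 1372 to 1529, and 254, 894 and 762 at 12 h, below its 1496 to 2103 (-1.81 ± 0.36, adjusted p = 0.0128).

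A graded group of decreases, with the lowest signal in animal 57 and the highest in animal 58, lost its calls in many fits without 1 animal. Paqr7, a membrane progestin receptor, had 687, 639 and 633 after MEHP at 6 h and 142, 539 and 289 at 12 h, with 566 to 853 after corn oil (-1.50 ± 0.32, adjusted p = 0.022, lost in 5 of 12). Ethe1, a mitochondrial enzyme of sulfide breakdown, had 486, 401 and 428 and then 78.6, 315 and 218, with 409 to 606 after corn oil (-1.48 ± 0.35, adjusted p = 0.0402, lost in 9 of 12). Nrep had 2272, 2449 and 2607 and then 545, 1643 and 999, with 1962 to 2850 after corn oil (-1.32 ± 0.31, adjusted p = 0.0375, lost in 9 of 12).

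Several late decreases lay in steroid, lipid and junction genes. Nr0b1, or DAX1, a nuclear receptor that restrains steroidogenic genes, had 902, 1042 and 966 after MEHP at 6 h and 181, 640 and 435 at 12 h, against 813 to 1139 after corn oil (-1.52 ± 0.32, adjusted p = 0.0188, lost in 3 of 12 fits without 1 animal, where the adjusted p reached 0.0658). Sult1a1, a sulfotransferase of phenols and steroids, had 714, 643 and 625 at 6 h and 170, 440 and 321 at 12 h, with 592 to 871 after corn oil (-1.39 ± 0.27, adjusted p = 0.0102). Dhcr7, the last enzyme of cholesterol synthesis, lay below corn oil already at 6 h, with 873, 857 and 647 against 1174, 1060 and 1019, and reached 449, 643 and 462 against 1307 to 1429 at 12 h (-0.94 ± 0.19, adjusted p = 0.0138, and 0.0577 without MEHP 6 h animal 31). It was the 1 of 21 measured cholesterol genes that passed. Fads1, a fatty acid desaturase, had 1190, 1223 and 1287 at 6 h and 318, 920 and 698 at 12 h after MEHP (-1.34 ± 0.31, adjusted p = 0.0342, lost in 8 of 12 fits without 1 animal). Gja1, the gap junction protein connexin 43 that couples Sertoli cells, had 4811, 4937 and 3955 at 6 h and 2970, 2370 and 2976 at 12 h, against 3866 to 5000 after corn oil (-0.85 ± 0.18, adjusted p = 0.0188, lost in 6 of 12 fits without 1 animal). Gja1 was the 1 of 33 measured junction and cytoskeleton genes that passed, and its dimmer probe sets passed no test. Casp6, an executioner caspase, had 343, 372 and 323 at 6 h, above its 262, 322 and 238 after corn oil, and 205, 237 and 185 at 12 h, below 308, 291 and 377 (-0.93 ± 0.20, adjusted p = 0.0188, lost in 5 of 12 fits without 1 animal).

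Dbp and Nfil3, which bind the same D-box element as activator and repressor in the circadian clock, moved in opposite directions. Dbp had 269, 226 and 215 after MEHP at 6 h and 91.1, 171 and 98.8 at 12 h, with 191 to 279 after corn oil (-1.01 ± 0.24, adjusted p = 0.0437, lost in 10 of 12 fits without 1 animal). Nfil3 had 186, 180 and 203 at 6 h, above its 62 to 90.2 after corn oil, and 1058, 342 and 566 at 12 h, against 48.2 to 56.9 (2.03 ± 0.41, adjusted p = 0.0138). The other 15 measured clock genes did not pass, among them Per1 (-0.29 ± 0.25, adjusted p = 0.829) and Nr1d1 (-0.57 ± 0.30, adjusted p = 0.568).

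The persisting class held 28 probe sets, 22 of which name 1 gene each, 21 genes in all. All but 1 probe set (Nat8f5) were higher after MEHP. Cxcl1, a chemokine for neutrophils, had 2.18, 3.59 and 5.2 after corn oil and 474, 707 and 715 after MEHP at 6 h, and 5.01, 2.59 and 5.29 against 770, 1561 and 3335 at 12 h. No MEHP animal came near a corn oil animal at either time. The changes were 5.02 ± 0.41 (adjusted p = 1.89e-07) and 6.31 ± 0.41 (adjusted p = 1.07e-09), and since the corn oil signals lay below the arrays' 40th percentiles their sizes depend on the added 16. Their difference, 1.29 with a 95% interval of 0.09 to 2.49, did not pass (adjusted p = 0.461). For Fos, Atf3 and Nfkbiz, described further on, all corn oil signals also lay under the arrays' 40th percentiles. The sizes of their changes in log2 depend on the added 16 as well.

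Secreted proteins of the matrix and vessels persisted too. Ccn1, a matrix-bound growth regulator, had 313, 548 and 519 after MEHP at 6 h and 777, 600 and 1160 at 12 h, against 51.2 to 71.9 after corn oil, with changes of 2.63 ± 0.23 and 3.48 ± 0.23 (difference 0.85, interval 0.17 to 1.52, adjusted p = 0.337). Ccn2, or connective tissue growth factor, had 2464, 2885 and 1841 at 6 h and 1910, 3132 and 3092 at 12 h, against 318 to 523 after corn oil (changes 2.45 ± 0.24 and 2.84 ± 0.24, difference adjusted p = 0.83). Edn1, the vasoconstrictor endothelin 1, had 212, 294 and 264 at 6 h and 338, 283 and 535 at 12 h, against 37.4 to 84.8. The time dependence of Edn1 was 0.23 ± 0.46 (adjusted p = 0.955).

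Zinc finger and bZIP factors persisted with more spread. Egr1 had 600, 1957 and 2508 after MEHP at 6 h and 1909, 1802 and 3549 at 12 h, against 138 to 292 after corn oil, and its time dependence was 0.56 with an interval of -0.71 to 1.82. Fos had 101, 507 and 1228 at 6 h and 883, 792 and 1855 at 12 h, against 21.8 to 62.6 (changes 2.98 ± 0.59 and 4.43 ± 0.59, difference adjusted p = 0.626). Animal 31 had the lowest of the 3 MEHP signals at 6 h for Egr1, Fos, Atf3 and Junb. The 6 h calls of Fos, Junb, Zfp36, Errfi1 and Egr4 were each lost in 5 of 12 fits without 1 animal, with adjusted p of up to 0.263, 0.159, 0.273, 0.155 and 0.281. Those of Timp3, Atf3 and Edn1 were lost in 4, 3 and 2 of 12 (adjusted p up to 0.332, 0.0944 and 0.103). Atf3, a stress-responsive repressor, had 112, 251 and 301 at 6 h and 809, 308 and 521 at 12 h, against 8.92 to 49.3 after corn oil (time dependence 0.90 ± 0.57, adjusted p = 0.693). Junb had 185, 260 and 395 at 6 h and 597, 530 and 832 at 12 h, against 104 to 124, and of the persisting genes named it and Zfp36 had the smallest time dependence p (1.12 ± 0.31, adjusted p = 0.0946 for Junb). Egr4 passed at 6 h alone, with 402, 398 and 664 against 143 to 186, and had 309, 224 and 461 against 185 to 224 at 12 h (time dependence -0.79 ± 0.39, adjusted p = 0.523), which is not shown to fade.

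Several feedback inhibitors were in the persisting class. Nfkbia, which encodes the inhibitor IkB-alpha, had 981, 1051 and 1093 after MEHP against 538, 620 and 589 at 6 h, and 1266, 1110 and 1361 against 841, 656 and 762 at 12 h. Its changes were 0.82 ± 0.12 and 0.72 ± 0.12 and their difference -0.11 (interval -0.45 to 0.24, adjusted p = 0.939). Nfkbiz, an inducible regulator of NF-kB, had 194, 296 and 303 at 6 h and 602, 336 and 725 at 12 h, against 36.4 to 62.7 (changes 2.25 ± 0.30 and 2.97 ± 0.30). Zfp36, which speeds the decay of cytokine mRNA, had 346, 437 and 526 at 6 h and 873, 1045 and 1241 at 12 h, against 157 to 212 (time dependence 1.19 ± 0.32, adjusted p = 0.0751). Dusp1 and Dusp5, phosphatases of MAP kinases, also stood above corn oil in every MEHP animal. Dusp1 had 578, 693 and 757 and then 943, 796 and 1074, against 91 to 173 after corn oil. Dusp5 had 220, 300 and 524 and then 460, 184 and 362, against 35.9 to 69.2. The time dependence passed for neither (0.41 ± 0.37 and -0.39 ± 0.49). Ier3, a survival gene induced by stress, had 916, 1279 and 1571 and then 2267, 1258 and 2263, against 228 to 399, with changes of 2.11 ± 0.23 and 2.32 ± 0.23.

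The remaining named persisting genes changed less. Errfi1, an inhibitor of the EGF receptor, had 948, 1270 and 1721 at 6 h and 1343, 888 and 1084 at 12 h, against 589 to 694 (time dependence -0.12, interval -0.60 to 0.37). Ppp1r15a, a phosphatase subunit of the integrated stress response, had changes of 1.19 ± 0.19 and 1.40 ± 0.19, and Rab20, a small GTPase, 1.25 ± 0.18 and 1.54 ± 0.18 in its brighter probe set. Timp3, another metalloproteinase inhibitor, passed at both times in 1 of 4 probe sets (0.83 ± 0.16 and 1.11 ± 0.16), and the other 3 passed at 12 h alone. Kcnk6, a potassium channel, had 341, 460 and 365 at 6 h and 351, 324 and 399 at 12 h, against 124 to 223 after corn oil, and its dimmer probe set passed no test. Its 6 h call was lost in 3 of 12 fits without 1 animal and its 12 h call in 5. Nat8f5, an N-acetyltransferase gene, had 45.7, 48.6 and 117 after MEHP against 229, 223 and 164 at 6 h, and 42.8, 32 and 23.4 against 174, 121 and 223 at 12 h. It fell at both times (-1.44 ± 0.27 and -1.94 ± 0.27), and its 6 h call was lost in 4 of 12 fits without 1 animal.

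**Figure D3:**
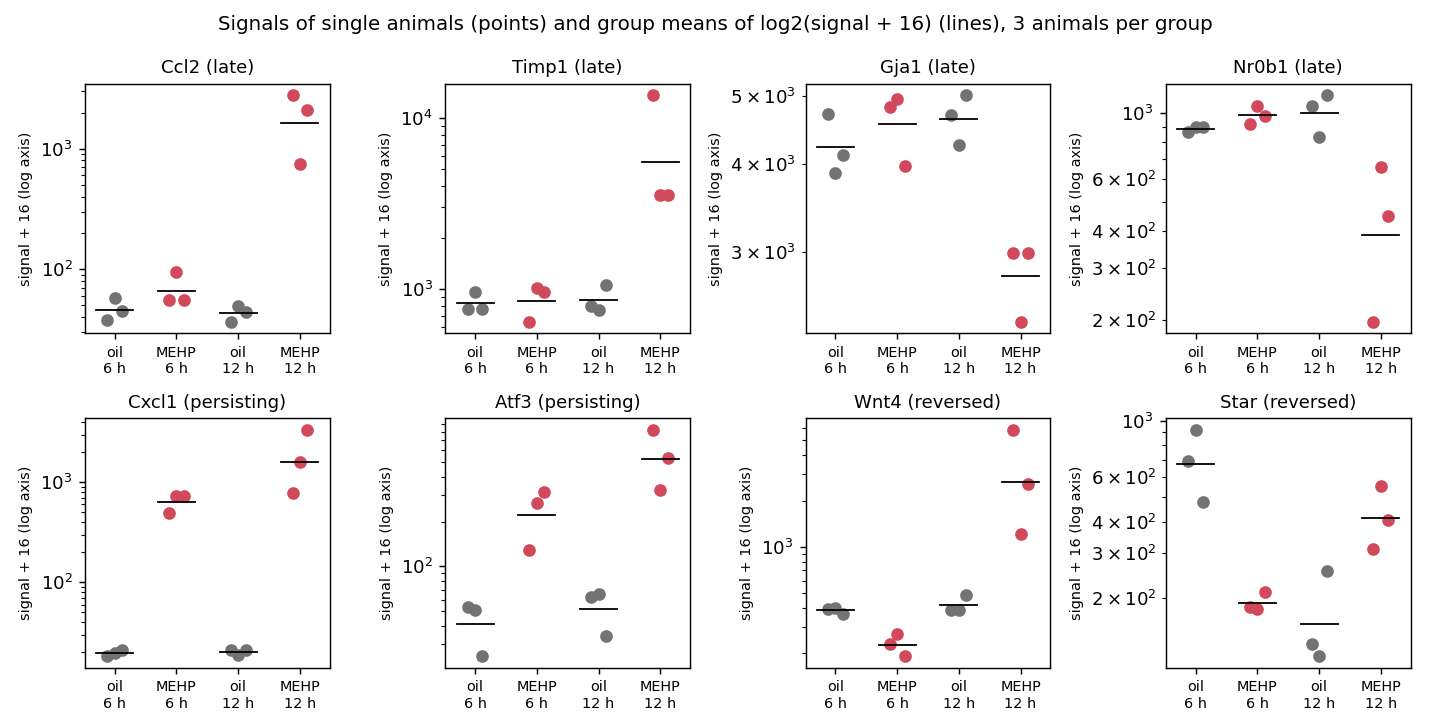
Signal + 16 on a log axis for 8 genes, with 1 point per animal, corn oil in grey and MEHP in red, 3 animals in each of 4 groups, and a line at the mean of log2(signal + 16). Ccl2 and Timp1 stand apart in the MEHP 12 h animals alone, Gja1 and Nr0b1 lie low there, Cxcl1 and Atf3 are high after MEHP at both times, and Wnt4 and Star lie below corn oil at 6 h and above it at 12 h.

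Fading was rare. The 3 faded probe sets have no gene symbol here. Of these, 2 were higher after MEHP at 6 h (0.98 and 1.02) and stood at -0.40 and -0.12 at 12 h. They had signals of 657, 671 and 511 (first) and 145, 143 and 139 (second) after MEHP at 6 h, against 248 to 337 and 54.3 to 72.1 after corn oil. The other one had 82.4, 96 and 135 after MEHP at 6 h against 584, 542 and 303, and stood at 0.19 at 12 h, with 138, 293 and 175 against 110, 151 and 278.

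In the reversed class, 11 of 13 probe sets were lower than corn oil at 6 h and higher at 12 h, and 2 the other way. All 13 passed at 12 h and 0 passed at 6 h, so their 6 h side rests on size and on the time dependence alone. Wnt4, a secreted signal of the developing gonad, had 213, 254 and 175 after MEHP against 374, 379 and 348 at 6 h, and 5854, 1202 and 2575 against 371, 371 and 467 at 12 h. The 3 MEHP animals lay below all corn oil animals at 6 h and above them at 12 h, with changes of -0.75 ± 0.31 (adjusted p = 0.867) and 2.67 ± 0.31 (adjusted p = 2.98e-06). The time dependence of 3.41 ± 0.43 had an adjusted p of 0.000277.

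Star encodes the protein that carries cholesterol into mitochondria, the first step of steroid synthesis. It had 675, 907 and 463 after corn oil and 167, 164 and 194 after MEHP at 6 h, and 115, 101 and 239 after corn oil and 295, 537 and 389 after MEHP at 12 h. The changes were -1.82 ± 0.38 (adjusted p = 0.0553) and 1.38 ± 0.38 (adjusted p = 0.0283), and the time dependence was 3.21 ± 0.54 (adjusted p = 0.0044). Most of it lay in the corn oil animals, whose level at 12 h stood below that at 6 h by a log2 difference of -2.10 (adjusted p = 0.296), while MEHP animals differed by 1.11 (adjusted p = 0.103). A second, dimmer probe set had changes of -1.62 and 0.49, and a time dependence of 2.11 (adjusted p = 0.0512). Cyp17a1, which makes androgen precursors, had 2480, 2561 and 4685 after MEHP at 6 h, against 5675 to 6729 after corn oil, and 113, 2343 and 575 at 12 h, against 4445 to 6848 (time dependence -2.38 ± 0.77, adjusted p = 0.186). Hsd3b1, Cyp11a1 and Lhcgr, the luteinising hormone receptor, likewise lay below all corn oil animals at both times, passed at 12 h and did not pass for time dependence (adjusted p of 0.28, 0.663 and 0.665). The summed signal of 15 Leydig markers ran from 9551 to 13237 after MEHP and 17543 to 17828 after corn oil at 6 h, and from 8324 to 12468 and 15856 to 20770 at 12 h. Among these markers Hsd11b1, which regenerates active glucocorticoid, was late and higher, with 236, 276 and 315 and then 1135, 701 and 570 after MEHP (1.66 ± 0.32, adjusted p = 0.00922).

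Ace, the angiotensin converting enzyme, was reversed in 1 probe set and late in its brighter one. The first had 23.9, 16 and 9.57 after MEHP against 52.4, 58.1 and 65.1 at 6 h and 415, 159 and 332 against 4.16, 45 and 11.5 at 12 h (time dependence 4.42 ± 0.55, adjusted p = 0.000277). All 9 of its signals outside the MEHP 12 h group lay below the arrays' 40th percentiles, its 6 h change did not pass (adjusted p = 0.536), and its sizes depend on the added 16. The brighter had changes of -0.17 (adjusted p = 1) and 2.62 and a time dependence of 2.79 (adjusted p = 0.0044). Vegfa, the vascular growth factor, had 96.9, 120 and 87.4 against 184, 181 and 172 at 6 h, and 470, 208 and 203 against 152, 152 and 137 at 12 h (1.57 ± 0.35, adjusted p = 0.0272). This call was lost in 9 of 12 fits without 1 animal (adjusted p up to 0.0751), and a dimmer Vegfa probe set did not pass (adjusted p = 0.503). Kdr, a receptor of this factor, was late and higher (1.61 ± 0.32, adjusted p = 0.0113), with its 3 MEHP animals below corn oil at 6 h (71.5 to 93.5 against 106 to 167) and above it at 12 h (157 to 420 against 104 to 143).

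The 2 parts of the time dependence come from different animals. Between the 12 h and 6 h corn oil animals 0 probe sets passed in limma (0%), with 1464 at an unadjusted p under 0.05, and between the MEHP animals of these times 1449 passed (4.67%). The MEHP part was the larger in 179 of the 184 probe sets with a higher time dependence and in 70 of the 75 with a lower one. Over all 31042 probe sets it was the larger in 18013.

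Changes at 1, 2 and 3 h come from 18 other arrays, which entered the classes only through the estimate of spread shared by all groups. The persisting probe sets had median changes of 0.08 at 1 h, 0.62 at 2 h and 0.99 at 3 h, against -0.03, 0.00 and 0.02 over all probe sets. Of the 28, 6 passed at 2 h (background 0.158%) and 7 at 3 h (background 0.029%). Cxcl1 had 3.36 at 2 h and 3.58 at 3 h, Ccn1 1.98 and 2.05, and Egr1 3.06 and 2.47, all past the threshold, and Ier3 had 1.45 at 2 h and passed at 3 h as well. Ccn2 (2.01), Dusp1 (1.64) and Errfi1 (0.92) passed at 3 h and not at 2 h. The late higher probe sets had medians of -0.03, -0.08 and 0.20 at these times and 0.12 at 6 h, and Cebpd alone of the 171 passed earlier (1.86 at 3 h, adjusted p = 0.00191). Of all 9 probe sets called at 3 h, 7 were persisting, 1 was late and 1 passed later at 12 h alone.

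**Figure D4:**
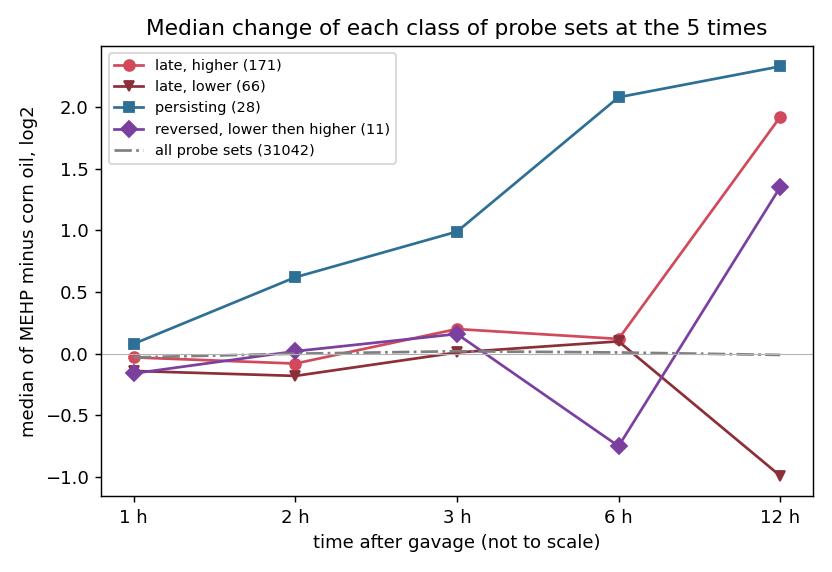
Median change (MEHP minus corn oil, log2 of signal + 16) on the y axis at 1, 2, 3, 6 and 12 h after gavage, evenly spaced on the x axis, for 171 late higher, 66 late lower, 28 persisting and 11 reversed (lower, then higher) probe sets and all 31042. The values at 6 h and 12 h chose the classes, and the persisting line lies at 0.62 and 0.99 at 2 h and 3 h while both late lines stay between -0.18 and 0.20 up to 6 h.

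Across gene lists the immediate early genes had the highest median change at 6 h, 0.80, with 12 of 39 higher past the threshold (0.0999% of all probe sets), and 1.61 at 12 h, with 23 (3.64% of all). Heat shock chaperones had medians of -0.06 and 0.42, with Bag3 alone of 14 called for time dependence. For PPAR targets and fatty acid oxidation the medians were -0.08 and -0.01, and for NRF2 and oxidative stress genes -0.03 and 0.20, with 0 of 28 and 0 of 22 called for time dependence. Germ cell lists showed no time dependence call, with 0 of 11 spermatogonia, 0 of 13 spermatocyte and 0 of 17 spermatid markers. The same held for 30 cell cycle genes and for 16 Sertoli markers. The median time dependence was -0.30 over the Sertoli markers (4 of 16 above 0) and -0.09 over the cell cycle genes (9 of 30). It was -0.21, -0.09 and 0.23 over the spermatogonia, spermatocyte and spermatid markers, against -0.01 over all probe sets. Of these Sertoli markers 15 lay above the 40th percentile in each of the 4 groups. With 0.834% of all probe sets called, 0 calls lie near that share in each of these lists, PPAR and NRF2 included. Vim, a filament protein of Sertoli cells, had a time dependence of 0.11 ± 0.16 (adjusted p = 0.927), and Inha, the inhibin subunit they secrete, -0.40 ± 0.22 (adjusted p = 0.593).

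**Figure D5:**
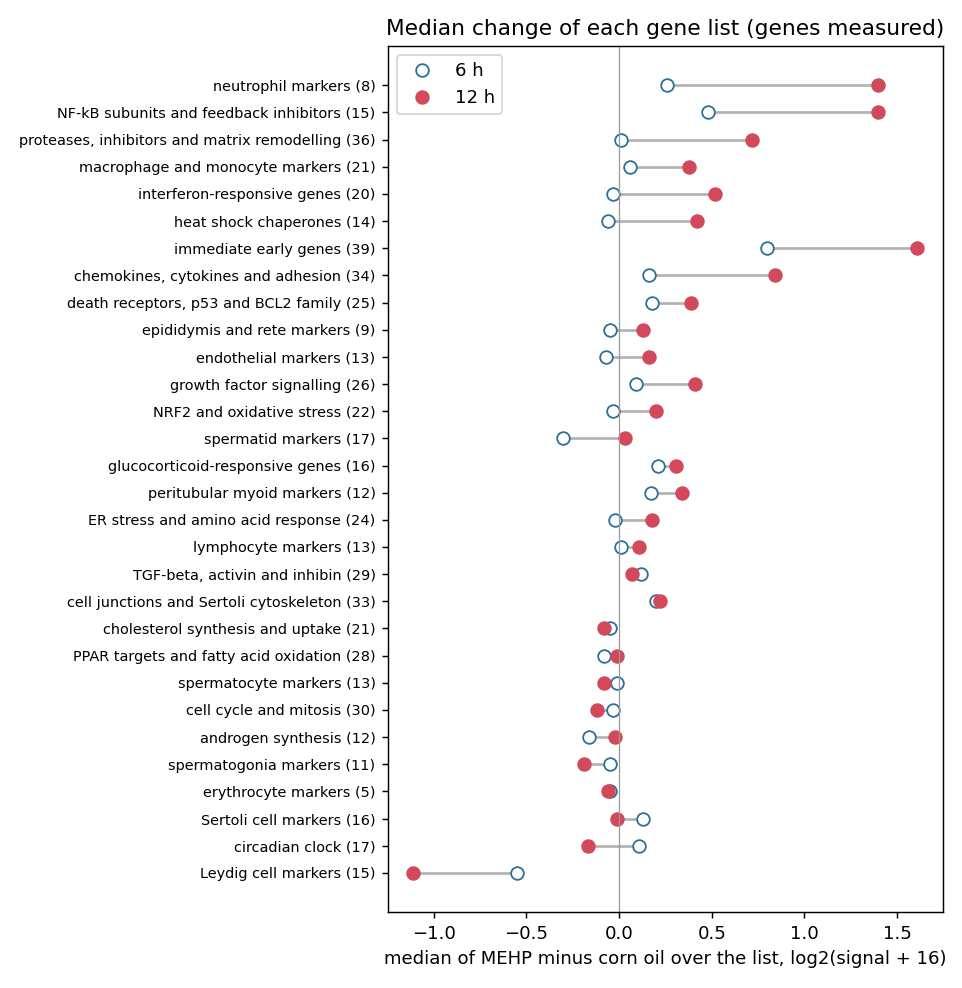
For each of 30 gene lists, with the number of genes measured in brackets, the median change (MEHP minus corn oil, log2 of signal + 16) at 6 h is an open circle and at 12 h a filled one, ordered by the median time dependence. Immediate early genes move from 0.80 to 1.61, neutrophil markers from 0.26 to 1.40, proteases and matrix genes from 0.01 to 0.72 and Leydig markers from -0.55 to -1.11.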

How the data were processed

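Each deposited value is the intensity of 1 probe set on 1 array, on a linear scale, which the authors had scaled before deposit. The submitters' processing notes name GCOS 1.0. How probes were summarised, and against which build, is not given in the sources used here. Of 31099 probe sets 57 controls were left out. The other 31042 were all tested as log2(signal + 16), with 20826 naming 1 gene. The 2% trimmed mean was 500.1 to 500.2 on the 12 arrays and the number of arrays limits the precision. Groups came from the labels. No 2 arrays were identical. Nothing in the labels pairs the animals.

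A mean for each of 10 groups was fitted to 30 arrays in limma 3.58.1 (R 4.3.3), eBayes with trend, 20 residual degrees of freedom, with Benjamini-Hochberg adjustment per contrast. The fit was tested on simulated data. A gene stands for its probe set of highest mean signal in lists and counts of lists.

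The comparison, classes, lists (30, with 568 of 657 genes measured) and rules were chosen with earlier results of these data known. Named genes had 1 symbol and a group mean of at least 200: the 12 largest time dependences per direction, up to 10 per class and direction, all called at 6 h, up to 4 called members per list and direction, and fixed genes. Lyz2, Camp, Fmo2 and Taok3 lie outside this rule and were named after their values were seen, as were the promoters shown. Alternatives were another pseudocount, filter, normalization, trend, weights, gavage volume, fewer arrays and each animal left out.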

Additional observations from a re-analysis of the deposited data

Results flagged for a closer look

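The change after MEHP differed between 6 h and 12 h by the test of the difference itself in 184 probe sets that lay higher at 12 h and 75 that lay lower. Changes of opposite sign at the 2 times stood behind the time dependence of Ace (4.42), Wnt4 (3.41), Star (3.21) and Vegfa (1.57). None of these 4 genes passed at 6 h, with adjusted p from limma of 0.536, 0.867, 0.0553 and 0.617. The brighter Ace probe set was late, with a 6 h change of -0.17, and the Vegfa call was lost in 9 of 12 fits without 1 animal. The corn oil animals differed between the times by -2.10 for Star and -1.20 for Ace, and by 0.12 for Wnt4 and -0.26 for Vegfa. Groups of 3 animals were not tested for single animals that stand apart.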

How the results depend on the processing

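No paired analysis was possible because each animal has a number of its own, which gives no pairs across groups. Named genes gave 1320 values under other settings and 1584 with 1 animal left out. Calls were lost in 93 and 203 of them and gained in 9 and 5. Reversals numbered 0, but a change of sign counted only where at least 1 of the 2 fits called the value. Some uncalled values did change sign, such as the time dependence of Egr1 (0.56), which reached -0.06 with 1 animal left out. With the 12 arrays alone the estimates stay the same, so that setting could not give a reversal. The 12 arrays alone gave 12 time dependence calls (11 higher, 1 lower), 12 at 6 h, 932 at 12 h, 10 late, 11 persisting, 0 faded and 2 reversed, with fewer residual degrees of freedom and the spread of the MEHP 12 h animals in every estimate. Array quality weights (gene by gene, since the default did not converge) gave 709 (356 and 353), 215 at 6 h, 574 late, 22 grown, 98 persisting, 13 faded and 21 reversed. Here animal 57 weighed 0.201, and grown means called at both times and for time dependence, all in 1 direction. Gavage volume as a covariate gave 593 (424 and 169), 545 late, 3 grown and 22 reversed. Weights per group, chosen after seeing the data, gave 118 lower, 76 at 6 h, 5 grown, 47 persisting and 7 reversed. A pseudocount of 64 gave 6 reversed, the filter on dim probe sets 1 grown and median centring 2 grown. Beyond the construction given, the cause of these shifts was not tested. Without 1 animal the counts ran from 113 to 815 for time dependence (88 to 486 higher, 24 to 329 lower), 13 to 56 at 6 h, 977 to 2715 at 12 h, 103 to 763 late, 0 to 6 grown, 12 to 41 persisting, 0 to 3 faded and 6 to 22 reversed. The lowest time dependence and late counts came without MEHP 6 h animal 31, the highest without MEHP 12 h animal 58. Of 270 list medians under other settings 7 moved by more than the spread between animals, and of 360 without 1 animal 8 did. The neutrophil median went from 1.22 to 0.63 without MEHP 12 h animal 57.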
